A study of Mus musculus with 18 samples.

Results

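Levels of 55536 named genes and of their transcripts were compared between stimulated, scrambled-control CD8+ T cells and naive CD8+ T cells of the mouse. The libraries were taken by their labels, 8 titled as control and 8 titled as naive, which makes 16 of the 18 in the series. The other 2 come from Tra2b-edited cells and enter no result here except where an alternative fit is named. All 16 libraries are labelled with the genotype OT-I and as coming from spleen and lymph nodes. OT-I is a line that carries a transgenic T cell receptor for the ovalbumin peptide SIINFEKL on the class I molecule H-2Kb. Receptor counts given below go against naive libraries made up of cells with that receptor alone. The naive libraries are labelled day 0 and are given no treatment. The control cells carry a scrambled sequence and were collected on day 4 after SIINFEKL together with agonist antibodies against OX40 and 4-1BB. Scrambled sequence, peptide, antibodies and 4 days therefore differ together between the groups, and their parts cannot be told apart. Receptor repertoire, markers of other cells and the pattern of Xist and Ddx3y differ between the groups as well, at values given below. The parts of these differences cannot be told apart from the others either. Age, sex, number of animals and any pooling of animals are not given in the sources used here. Replicates may thus be technical, and each p-value measures only the spread between these libraries.

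A naive CD8+ T cell recirculates between blood and lymphoid organs and is held small and out of cycle by factors such as FOXO1, KLF2 and TCF7. Recognition of peptide through the T cell receptor with CD28 starts growth, division and a cytotoxic programme, and OX40 (Tnfrsf4) and 4-1BB (Tnfrsf9) are TNF receptor family members that prolong survival and expansion of activated cells. Days after priming, the proximal signal has usually faded, while receptors, adhesion molecules and transcription factors of the effector cell remain changed.

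Total counts were 68249844 to 86932452 per naive library and 73735681 to 93972513 per control. Coordinates below are those of GENCODE M21 on GRCm38. Levels are given as CPM, counts scaled to library size with TMM factors. The labels were checked against receptor genes and cell markers. Of the Traj counts, Traj33, the joining segment of the OT-I alpha chain, made up 2.33 to 5.77% in naive and 58.6 to 65.6% in control libraries, and 19 Trbv segments each held over 1% of the Trbv counts in every naive library against 1 segment in every control. These values go against a naive group made up of OT-I receptor-bearing cells alone, so the group is called here by its label. The naive libraries also held proliferation transcripts, with Mki67 from 91.2 to 219 CPM against 334 to 423 CPM. Summed markers of dendritic cells ran from 1167 to 3446 CPM against 154 to 471 CPM, those of B cells from 759 to 1230 against 401 to 467 CPM, and those of natural killer cells from 79.9 to 135 against 9.02 to 19.9 CPM. Of 11 tested B cell markers 10 were lower and 1 was not called. Their median log2 fold change was -2.66, a larger difference than that of the sum. Summed CD8 T cell markers (8 genes, among them Cd8a, Cd8b1 and Cd3e) were present in every library, at 7731 to 9126 against 5053 to 6022 CPM. Xist stood at 110 to 128 CPM in naive libraries 1, 2, 6 and 8 and under 1 CPM in the other 4, which had Ddx3y at 115 to 135 CPM, while every control held both at 12.1 to 40.4 and 21.2 to 39.8 CPM. The comparison was repeated with either set of 4. In bulk libraries, fewer cells of a type and less RNA per cell cannot be told apart.

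**Figure D1:**
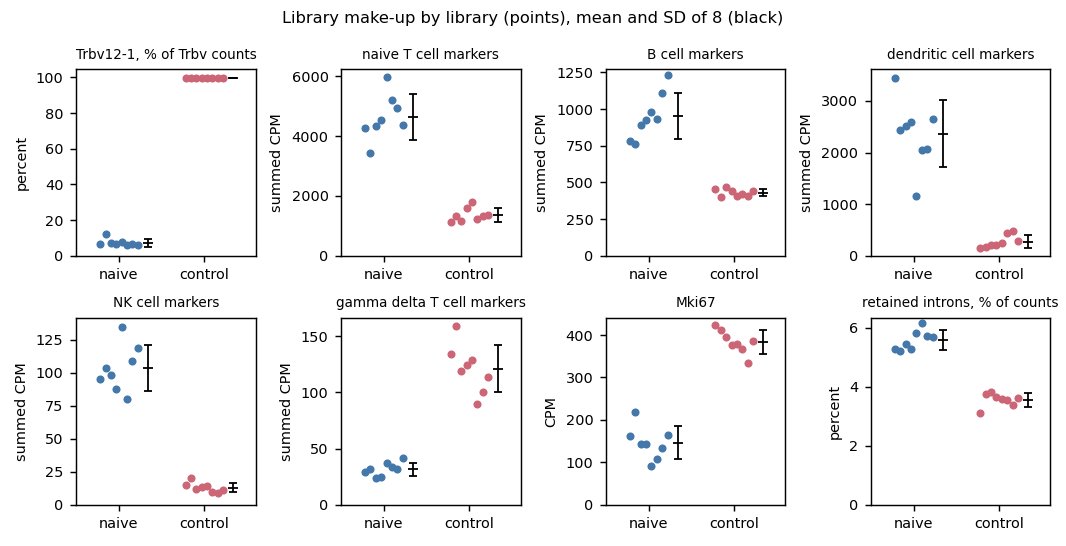
Each point is a library, with the mean and SD of 8 in black; panels show the Trbv12-1 share and the retained-intron share in percent, Mki67 in CPM and 5 marker lists as summed CPM. Naive and control libraries do not overlap in any panel, and dendritic cell markers stood at 1167 to 3446 against 154 to 471 CPM.

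Of the named genes, 30137 had a count in these libraries and 17078 passed the low-count filter. With edgeR's quasi-likelihood test and Benjamini-Hochberg adjustment, used for every gene below, 71.5% of the tested genes were called at an adjusted p under 0.05. Higher in the controls were 32.5%, lower were 39.0%, and in 42.5% the 8 libraries of the 2 groups did not overlap. The median log2 fold change over all tested genes was -0.08. Differences were large, with 45 genes at least 16-fold higher and 389 at least 16-fold lower. A list of genes therefore has to be read against these shares, and a count of called members near 71.5% says little about the list.

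**Figure D2:**
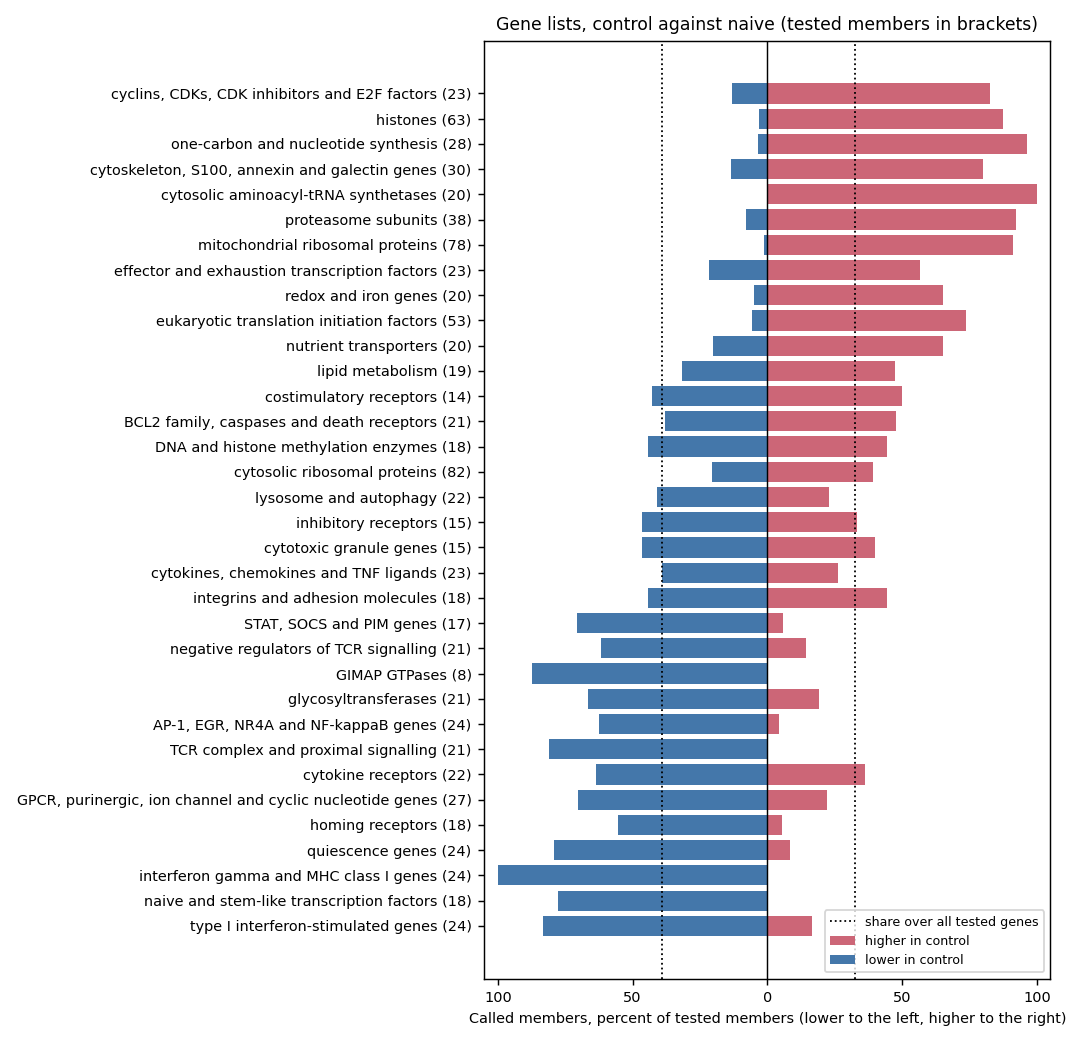
Bars give the percent of tested members of each gene list that were called higher (right) or lower (left) in the controls, with the number tested in brackets and the shares over all tested genes, 32.5 and 39.0%, as dotted lines. Lists are ordered by median log2 fold change, from cyclins, CDKs and E2F factors at 1.06 to type I interferon-stimulated genes at -1.65.

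Costimulatory receptors changed in both directions, and both antibody targets were higher in the controls. Of 14 tested members 7 were higher and 6 lower (92.9% called against 71.5% of all genes, median log2 fold change 0.26). Tnfrsf4 (OX40) measured 4.25 to 10.9 CPM (median 7.54) in naive and 19.4 to 64.4 CPM (median 32.8) in control libraries (log2 fold change 2.25, SE 0.24, adjusted p = 1.25e-07, ENSMUSG00000029075.6, chr4:156013843-156016612, plus strand). Tnfrsf9 (4-1BB) measured 77.5 to 138 CPM (median 108) in naive and 126 to 188 CPM (median 151) in control libraries (log2 fold change 0.5, SE 0.11, adjusted p = 0.000387). No Tnfrsf4 value was shared between the groups, whereas the lowest control lay below the highest naive library for Tnfrsf9. Slamf1, a homophilic signalling receptor, measured 16.2 to 27.4 CPM (median 17.5) against 52.6 to 97.7 CPM (median 80.3) and did not overlap (log2 fold change 2.02, adjusted p = 4.07e-10). Icos, the inducible CD28 relative, was higher with overlapping groups (log2 fold change 0.43, adjusted p = 0.000193). Cd28 itself stood at 203 to 234 CPM (median 211) against 204 to 252 CPM (median 231) and did not pass the test (log2 fold change 0.09, adjusted p = 0.12). On the other side, Cd27, a receptor of naive and memory cells, fell, at 401 to 520 CPM (median 424) in naive and 177 to 242 CPM (median 231) in control libraries (log2 fold change -1.0, SE 0.07, adjusted p = 1.25e-09). Tnfrsf14, the HVEM receptor that binds BTLA, also fell without overlap (log2 fold change -2.39, adjusted p = 1.41e-09).

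Of 15 inhibitory receptors 5 were higher and 7 lower (median -0.12), shares not far from the 32.5 and 39.0% of all genes. Lag3, a receptor for class II molecules, measured 3.02 to 7.68 CPM (median 5.09) in naive and 24.1 to 36.5 CPM (median 27.2) in control libraries (log2 fold change 2.49, SE 0.17, adjusted p = 8.4e-10), and every control exceeded every naive library. Ctla4, which competes with CD28 for its ligands, measured 15.5 to 27 CPM (median 17.9) against 27.8 to 48 CPM (median 43.2) (log2 fold change 1.12, adjusted p = 1.96e-07). Higher as well were Pdcd1 (PD-1, 3.05), Cd200 (1.57) and Cd160 (0.44) on the log2 scale. Entpd1 (CD39), an ATP-degrading ectoenzyme, fell from a median of 9.55 to 2.18 CPM (log2 fold change -1.9, adjusted p = 6.56e-07). Vsir (VISTA) and Btla, inhibitory receptors of resting T cells, fell without overlap by 1.18 and 0.85 on the log2 scale. Havcr2 (TIM-3) measured 28.3 to 80.3 CPM (median 45.4) against 32.3 to 74 CPM (median 58.1) and did not pass the test (log2 fold change 0.24, adjusted p = 0.312).

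All 22 cytokine receptor genes tested were called, 8 higher and 14 lower (median -0.75). The interleukin 2 receptor alpha chain Il2ra, which gives the receptor its high affinity, measured 12 to 44.2 CPM (median 21.7) in naive and 112 to 192 CPM (median 141) in control libraries (log2 fold change 2.67, SE 0.22, adjusted p = 7.23e-09). Il12rb2, the signalling chain of the interleukin 12 receptor, measured 8.12 to 43.4 CPM (median 13.1) in naive and 38.2 to 94 CPM (median 60.2) in control libraries (log2 fold change 1.89, SE 0.32, adjusted p = 4.77e-05). Il18r1 measured 25.3 to 47.6 CPM (median 32.9) against 78 to 119 CPM (median 91.2) (log2 fold change 1.45, adjusted p = 5.92e-09). Groups did not overlap for Il2ra and Il18r1, and naive library 2, at the top of its group, overlapped the controls for Il12rb2. Il2rb, the beta chain shared with interleukin 15, differed less, at 834 to 1361 CPM (median 958) against 1189 to 1470 CPM (median 1300) (log2 fold change 0.38, adjusted p = 0.00056), and Il1r2, a decoy receptor chosen after its value was seen, was higher by 2.58.

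Among the 14 lower receptor genes, Il7r, which maintains naive and memory cells, measured 255 to 712 CPM (median 302) in naive and 46.8 to 98.5 CPM (median 75.3) in control libraries (log2 fold change -2.27, SE 0.20, adjusted p = 1.22e-08). Naive library 5, at 712 CPM, stood far above the other naive libraries. Both chains of the interleukin 6 receptor were lower, Il6ra at 44.5 to 83.3 CPM (median 73.2) against 2.99 to 12.8 CPM (median 6.12) (log2 fold change -3.29, adjusted p = 1.12e-08) and the shared chain Il6st at 114 to 217 CPM (median 169) against 19 to 33.4 CPM (median 25.4) (log2 fold change -2.72, adjusted p = 1.27e-11). Il4ra fell from a median of 203 to 46.5 CPM (log2 fold change -2.09, adjusted p = 1.32e-10) and Tgfbr2, for TGF-beta, from 203 to 94.2 CPM (log2 fold change -1.14, adjusted p = 4.36e-09). Ifngr2, the signalling chain of the interferon gamma receptor, measured 17 to 25.2 CPM (median 22.4) in naive and 0.46 to 1.66 CPM (median 0.785) in control libraries (log2 fold change -4.43, SE 0.24, adjusted p = 4.62e-11, ENSMUSG00000022965.8, chr16:91547072-91565623, plus strand). Its partner Ifngr1 differed by -0.66 on the log2 scale (adjusted p = 1.29e-05). For all genes of this paragraph the groups did not overlap.

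Of the 17 JAK, STAT, SOCS and PIM genes tested, 12 were lower and 1, Stat4, was higher by 0.18 (median -0.36). Their called share of 76.5% was near the 71.5% of all genes, and 39.0% of all genes were lower. Feedback inhibitors of cytokine receptors were among the lower genes. Socs3, an inhibitor of receptors that use Il6st, measured 55.6 to 112 CPM (median 85.2) in naive and 8.45 to 16.1 CPM (median 12.9) in control libraries (log2 fold change -2.65, SE 0.16, adjusted p = 1.27e-10), and Socs1 measured 33 to 54.1 CPM (median 48.2) against 7.31 to 23.6 CPM (median 17.5) (log2 fold change -1.51, adjusted p = 4.26e-07). Both had non-overlapping groups. Jak1, a kinase shared by many cytokine receptors, fell from a median of 1456 to 614 CPM (log2 fold change -1.23, adjusted p = 9.96e-11). Cish, a feedback inhibitor induced by interleukin 2, did not pass the test (log2 fold change -0.42, adjusted p = 0.129), with 7.94 to 16.7 CPM (median 12.2) against 3.68 to 15.3 CPM (median 8.79). Stat4 was no longer called when libraries were scaled to total counts alone.

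**Figure D3:**
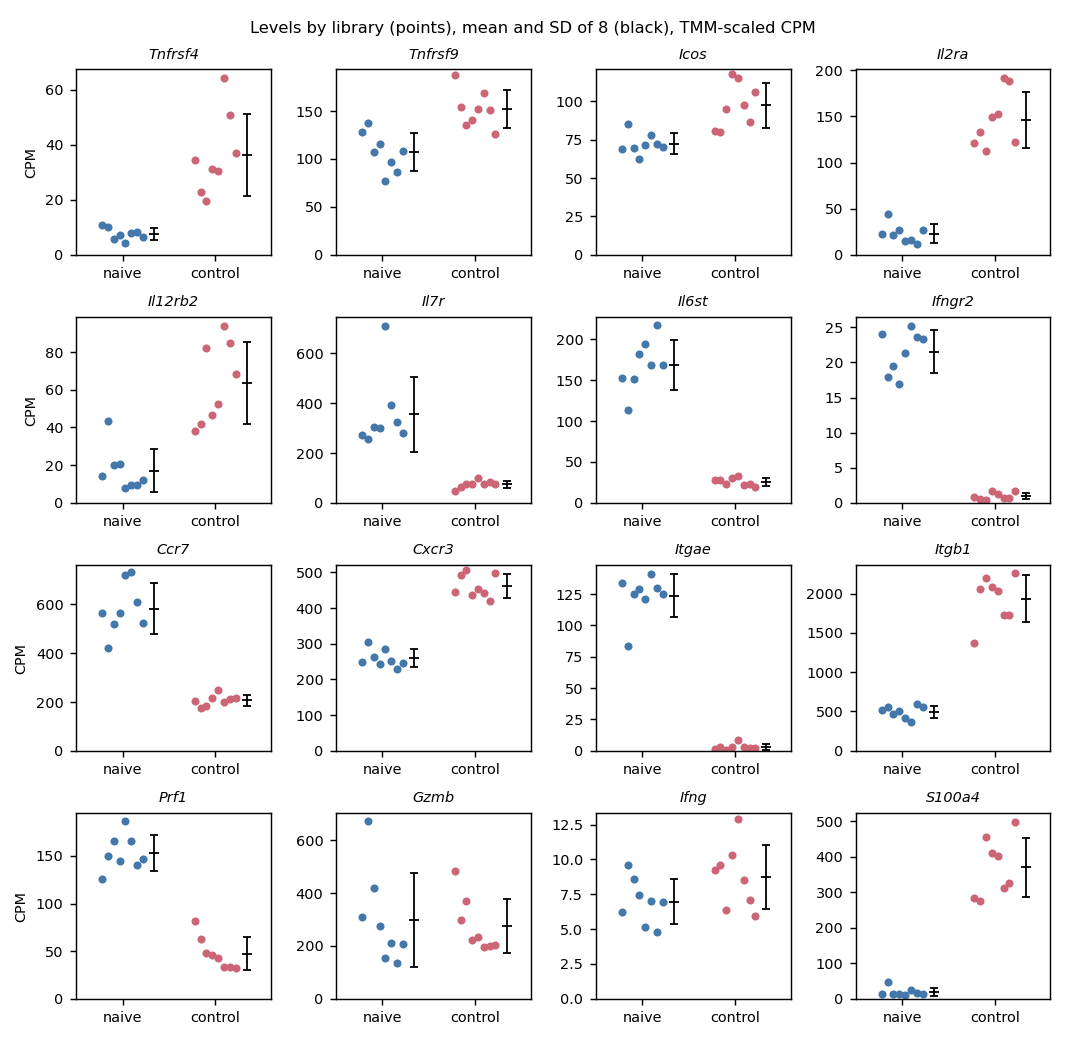
Each point is a library, naive in blue and control in red, with the mean and SD of 8 libraries in black; the vertical axis is TMM-scaled CPM and starts at 0 in every panel. Tnfrsf4, Il2ra, Itgb1 and S100a4 lie higher in every control than in every naive library, Il7r, Ifngr2, Ccr7, Itgae and Prf1 lie lower, and Gzmb and Ifng overlap.

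Of 18 homing receptors 10 were lower, 1 was higher and 7 were not called (61.1% called, below the 71.5% of all genes, median -0.96). Ccr7, which takes naive cells into lymph nodes, measured 420 to 733 CPM (median 567) in naive and 177 to 251 CPM (median 209) in control libraries (log2 fold change -1.49, SE 0.10, adjusted p = 5.66e-10). S1pr1, which guides exit from lymphoid organs, measured 418 to 609 CPM (median 473) against 182 to 276 CPM (median 230) (log2 fold change -1.15, adjusted p = 1.6e-08). None of these genes had overlapping groups. Ccr9, a gut-homing receptor, fell by 6.85 on the log2 scale. The exception was Cxcr3, the receptor for interferon-induced chemokines that draws effector cells into inflamed tissue, at 230 to 306 CPM (median 251) against 420 to 506 CPM (median 448) without overlap (log2 fold change 0.83, adjusted p = 9.74e-10). Cxcr6, Cxcr4 and Gpr183 had log2 fold changes of -0.02, -0.00 and -0.00 and did not pass the test.

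Of 18 integrin and adhesion genes 8 were higher and 8 lower (median -0.17). Itgb1, the beta-1 chain, measured 370 to 590 CPM (median 512) in naive and 1376 to 2265 CPM (median 2047) in control libraries (log2 fold change 1.96, SE 0.11, adjusted p = 5.28e-11). Its partner Itga4, with which it forms VLA-4, measured 158 to 242 CPM (median 185) against 251 to 416 CPM (median 309) (log2 fold change 0.78, adjusted p = 3.79e-06). Itgae (CD103), which pairs with beta-7 and binds E-cadherin, measured 83.8 to 141 CPM (median 127) in naive and 0.86 to 8.58 CPM (median 2.8) in control libraries (log2 fold change -5.28, SE 0.36, adjusted p = 8.61e-10, ENSMUSG00000005947.11, chr11:73090583-73147446, plus strand). Control 5, the highest control at 8.58 CPM, still lay far below the lowest naive library. Itgb7, the beta-7 chain itself, was higher with overlapping groups (log2 fold change 0.38, adjusted p = 2.03e-05). Icam1, an LFA-1 ligand, fell from a median of 185 to 79.5 CPM (log2 fold change -1.23, adjusted p = 4.54e-11). Cd44, commonly used to mark activated cells, did not pass the test at 55.4 to 82.4 CPM (median 70.2) against 50.8 to 66.4 CPM (median 64.2) (log2 fold change -0.16, adjusted p = 0.054). It was called lower when libraries were scaled to total counts (-0.26) and when mean log2 CPM had to reach 4 (-0.27). The same held with receptor segments, immunoglobulin genes and other-cell markers left out (-0.17). Itgae is also carried by a subset of dendritic cells, whose markers moved with it at the values given above, and their part in the result was not tested.

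The T cell receptor complex and its proximal enzymes were lower or not called. None of the 21 tested genes was higher, and 17 were lower (81% called against 71.5% of all genes, median -0.67). Cd8a measured 896 to 1109 CPM (median 1018) in naive and 397 to 527 CPM (median 463) in control libraries (log2 fold change -1.15, SE 0.06, adjusted p = 3.57e-11) and Cd8b1 measured 1426 to 1657 CPM (median 1543) against 645 to 1111 CPM (median 820) (log2 fold change -0.88, adjusted p = 1.87e-07). Cd247, the zeta chain, fell by 0.65 and the kinase Lck by 0.45 on the log2 scale, and none of these had overlapping groups. Txk, a TEC family kinase, differed more, at 213 to 315 CPM (median 251) against 47.8 to 88.5 CPM (median 60.8) (log2 fold change -2.0, adjusted p = 1.01e-10). The adaptor Trat1, which associates with the receptor complex, measured 27.4 to 44.1 CPM (median 39.2) in naive and 0.339 to 0.915 CPM (median 0.465) in control libraries (log2 fold change -6.03, SE 0.19, adjusted p = 3.57e-14, ENSMUSG00000030775.10, chr16:48730774-48772021, minus strand). Themis, a developmental adaptor, stood at 202 to 241 CPM (median 219) against 204 to 269 CPM (median 217) and did not pass the test (log2 fold change 0.03, adjusted p = 0.586).

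Of the genes that restrain receptor signalling 13 of 21 were lower and 3 higher (median -0.42). With 76.2% called, the list lay near the 71.5% of all genes, and 39.0% of all genes were lower. Dgka, a kinase that removes diacylglycerol, measured 778 to 1152 CPM (median 926) in naive and 345 to 469 CPM (median 425) in control libraries (log2 fold change -1.17, SE 0.08, adjusted p = 6.97e-10). Cblb, a ubiquitin ligase that limits CD28-independent activation, measured 105 to 151 CPM (median 111) against 68.3 to 87.5 CPM (median 79.4) (log2 fold change -0.56, adjusted p = 1.61e-06). Dusp6, a phosphatase of ERK, measured 35.8 to 66 CPM (median 51.2) against 16.1 to 35.2 CPM (median 21.9) (log2 fold change -1.14, adjusted p = 3.15e-06). The groups did not overlap for any of these. Spry1, an inhibitor of RAS signalling, was among the 3 that were higher, at 1.02 to 2.05 CPM (median 1.65) against 2.22 to 9.73 CPM (median 5.89) (log2 fold change 1.81, adjusted p = 3.42e-06). The other 2 were Dusp4 (1.31) and Dusp5 (log2 fold change 0.56, adjusted p = 0.0371). Dusp5 lost its call when scaled to total counts, at 0.46, and without controls 1 and 2, at 0.40.

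In a list of AP-1, EGR, NR4A and NF-kappaB genes, 15 of 24 were lower in the controls, 1 was higher and 8 were not called (median -0.55). The called share was 66.7%, below the 71.5% of all genes, of which 39.0% were lower. Egr1, a direct target of ERK signalling, measured 42.8 to 79.6 CPM (median 52.6) in naive and 7.33 to 20.6 CPM (median 15) in control libraries (log2 fold change -1.9, SE 0.18, adjusted p = 3.48e-08). Nr4a1, which reports recent receptor signals, measured 19.9 to 29.4 CPM (median 22.7) against 4.9 to 11.5 CPM (median 6.98) (log2 fold change -1.6, adjusted p = 6.05e-08), and Fos, a subunit of AP-1, 3.8 to 6.8 CPM (median 5.83) against 0.355 to 1.94 CPM (median 0.965) (log2 fold change -2.34, adjusted p = 1.15e-07). Every naive library exceeded every control for these 3 genes. Tnfaip3 (A20), an inhibitor of NF-kappaB, fell from a median of 82 to 36.2 CPM (log2 fold change -1.21, adjusted p = 9.28e-11). Nfkb1, which encodes p105 and p50, was the exception and was higher in every control, at 47.8 to 56.3 CPM (median 51) against 77.8 to 139 CPM (median 111) (log2 fold change 1.14, adjusted p = 3.58e-09). Jun did not pass the test (log2 fold change -0.48, adjusted p = 0.11).

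Transcription factors of the naive state fell, 14 of 18 with none higher (77.8% called against 71.5% of all genes, median -1.34). Tcf7 (TCF-1) measured 398 to 593 CPM (median 514) in naive and 145 to 231 CPM (median 161) in control libraries (log2 fold change -1.58, SE 0.10, adjusted p = 2.13e-10). Foxo1, which keeps Il7r and Klf2 transcribed, measured 47.6 to 83.5 CPM (median 51.3) in naive and 17.9 to 31.8 CPM (median 20.3) in control libraries (log2 fold change -1.34, SE 0.13, adjusted p = 3.74e-08). Foxp1, a guard of quiescence, measured 163 to 257 CPM (median 191) against 48.1 to 70.5 CPM (median 57) (log2 fold change -1.8, adjusted p = 3.7e-11), and Satb1, a chromatin organiser, 179 to 259 CPM (median 223) against 41 to 109 CPM (median 80.5) (log2 fold change -1.47, adjusted p = 9.46e-08). For all 4 the groups did not overlap. Klf2, a FOXO1 target that controls trafficking genes, did not pass the test at 51.1 to 148 CPM (median 69.3) against 49.2 to 135 CPM (median 62.8) (log2 fold change -0.16, adjusted p = 0.539). Id3 and Myb, both linked to memory precursors, were not called either (-0.02 and 0.13).

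Effector factors rose more often than they fell, 13 of 23 against 5 (78.3% called against 71.5% of all genes, median 0.51). Tbx21 (T-bet), a driver of the cytotoxic programme, measured 108 to 222 CPM (median 150) in naive and 299 to 390 CPM (median 342) in control libraries (log2 fold change 1.17, SE 0.11, adjusted p = 1.83e-08). Batf measured 81.5 to 118 CPM (median 98.6) against 190 to 265 CPM (median 219) (log2 fold change 1.17, adjusted p = 9.39e-10) and its partner Irf4, which scales with receptor signal strength, 9.83 to 19 CPM (median 15.7) against 31.1 to 38.3 CPM (median 33) (log2 fold change 1.18, adjusted p = 2.43e-08). Bhlhe40, a repressor linked to tissue-resident cells, measured 31 to 102 CPM (median 55.5) in naive and 160 to 265 CPM (median 176) in control libraries (log2 fold change 1.76, SE 0.21, adjusted p = 4.73e-07). Hif1a, the oxygen-sensitive factor, measured 141 to 210 CPM (median 174) against 291 to 456 CPM (median 361) (log2 fold change 1.08, adjusted p = 5.11e-09). In none of these did the groups overlap. Maf was higher but spread, with 1.76 CPM in control 1 and 4.33 to 12.4 CPM in the other controls against 0.354 to 1.9 CPM in the naive libraries (log2 fold change 3.32, adjusted p = 5.04e-07). Prdm1 (Blimp-1) differed less (log2 fold change 0.54, adjusted p = 0.0135) and overlapped. Its call was lost with only the high-Xist naive libraries (0.33).

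The 5 effector factors that fell were Eomes, Irf8, Ikzf2, Zeb2 and Ikzf3. Eomes, the relative of T-bet found in memory cells, measured 62.3 to 122 CPM (median 94.1) in naive and 12.2 to 64.2 CPM (median 15.6) in control libraries (log2 fold change -1.85, SE 0.34, adjusted p = 0.000121). Controls 1 and 2, at 64.2 and 55.5 CPM, stood apart from the other 6, at 12.2 to 20 CPM. Irf8 measured 97.5 to 236 CPM (median 174) against 36.9 to 77.7 CPM (median 46) (log2 fold change -1.8, adjusted p = 3.13e-08), Ikzf2 (Helios) 27.5 to 45.4 CPM (median 35.4) against 3.72 to 15.1 CPM (median 10.5) (log2 fold change -1.78, adjusted p = 3.26e-07) and Zeb2 3.12 to 6.57 CPM (median 5.21) against 1.15 to 2.55 CPM (median 1.91) (log2 fold change -1.47, adjusted p = 2.11e-06), all without overlap. Irf8 is also a factor of dendritic cells and B cells, whose summed markers fell with it (1167 to 3446 against 154 to 471 CPM, and 759 to 1230 against 401 to 467 CPM). The median log2 fold change of the tested B cell markers was -2.66. The part of these cells in the result was not tested. Tox, Id2 and Zfp683, factors of exhausted, effector and resident cells, were not called (-0.07, 0.21 and -0.16).

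Genes of quiescence were lower, 19 of 24 against 2 higher (median -1.08). Pik3ip1, an inhibitor of PI3 kinase, measured 143 to 281 CPM (median 162) in naive and 8.16 to 16.1 CPM (median 10.8) in control libraries (log2 fold change -4.05, SE 0.18, adjusted p = 3.06e-12). Btg1, which promotes mRNA decay in resting cells, measured 432 to 676 CPM (median 539) in naive and 35.9 to 76.5 CPM (median 55.6) in control libraries (log2 fold change -3.38, SE 0.15, adjusted p = 4.15e-12). Tsc22d3 (GILZ), a glucocorticoid and FOXO target, measured 153 to 519 CPM (median 251) against 21.9 to 36.1 CPM (median 28.5) (log2 fold change -3.22, adjusted p = 9.74e-10), and Txnip, which limits glucose uptake, 342 to 691 CPM (median 404) against 63.4 to 111 CPM (median 96.1) (log2 fold change -2.25, adjusted p = 1.88e-10). Pdcd4, a brake on translation, fell from a median of 138 to 23.3 CPM (log2 fold change -2.57, adjusted p = 1.23e-11). All 5 genes separated the groups. The 2 higher members were Rb1 (0.42) and Klf4 (1.36), whose level was under 1 CPM in every library and whose call was lost without control 4 (adjusted p = 0.104). Rb1 lost its call with only the high-Xist naive libraries (0.26).

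Among cyclins, CDKs, their inhibitors and E2F factors 19 of 23 were higher and 3 lower (median 1.06), against the background of 32.5 and 39.0%. The D cyclins did not move together. Ccnd3 measured 385 to 512 CPM (median 439) in naive and 636 to 709 CPM (median 666) in control libraries (log2 fold change 0.59, SE 0.05, adjusted p = 2.25e-08), while Ccnd2 measured 397 to 754 CPM (median 584) in naive and 189 to 248 CPM (median 216) in control libraries (log2 fold change -1.43, SE 0.10, adjusted p = 8.62e-10). Both separated the groups, in opposite directions. Ccnd1, chosen after its value was seen, had a log2 fold change of -3.18 and Cdkn1b (p27), the inhibitor of resting cells, one of -0.85. The D cyclin partners Cdk4 and Cdk6 measured 301 to 377 CPM (median 339) against 521 to 634 CPM (median 544) (log2 fold change 0.72, adjusted p = 1.1e-09) and 21.3 to 37.6 CPM (median 29.1) against 59.3 to 94.3 CPM (median 72.6) (log2 fold change 1.3, adjusted p = 3.71e-09). Ccne2, which acts at entry into S phase, measured 33.1 to 71 CPM (median 48.7) against 131 to 187 CPM (median 163) (log2 fold change 1.66, adjusted p = 3.01e-09). Mitotic Ccnb1 was already at 125 to 324 CPM in the naive libraries and at 530 to 657 CPM in the controls (log2 fold change 1.49, adjusted p = 3.18e-08). The p53 target Cdkn1a (p21) did not pass the test (log2 fold change 0.17, adjusted p = 0.5).

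One-carbon and nucleotide synthesis rose almost as a block, 27 of 28 members being higher (median 0.92). Mthfd2, the mitochondrial one-carbon enzyme, measured 88.9 to 128 CPM (median 109) in naive and 204 to 252 CPM (median 222) in control libraries (log2 fold change 1.04, SE 0.08, adjusted p = 2.6e-09). Paics, of purine synthesis, measured 255 to 327 CPM (median 283) against 534 to 642 CPM (median 600) (log2 fold change 1.06, adjusted p = 2.6e-11), and Tyms, which makes thymidylate, 92.2 to 192 CPM (median 133) against 345 to 378 CPM (median 362) (log2 fold change 1.43, adjusted p = 2.07e-09). Rrm2, the ribonucleotide reductase subunit, measured 355 to 1011 CPM (median 616) in naive and 1679 to 1863 CPM (median 1794) in control libraries (log2 fold change 1.51, SE 0.15, adjusted p = 4.65e-08). No group overlapped in these genes. The exception was Impdh1, lower by 0.35, whereas its paralog Impdh2, of guanine nucleotide synthesis, was higher by 0.93.

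Nutrient transporters were higher in 13 of 20 and lower in 4 (median 0.33). Tfrc, the transferrin receptor, measured 28.3 to 56.4 CPM (median 45) in naive and 80.5 to 118 CPM (median 93.2) in control libraries (log2 fold change 1.12, SE 0.13, adjusted p = 2.53e-07), and Slc7a5, the light chain of the large amino acid carrier, 34.1 to 64 CPM (median 54.2) against 64.9 to 131 CPM (median 97.8) (log2 fold change 0.92, adjusted p = 3.97e-05). Its heavy chain Slc3a2 stood at 145 to 168 CPM (median 154) against 144 to 190 CPM (median 159) and did not pass the test (log2 fold change 0.05, adjusted p = 0.367). The glucose carriers Slc2a1 and Slc2a3 differed by 0.3 and 0.37, with overlapping groups. The lactate carriers Slc16a1 and, chosen after its value was seen, Slc16a3 were higher by 0.77 and 2.5. Slc1a5, which carries glutamine, was lower (log2 fold change -0.43, adjusted p = 0.000633).

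In lipid metabolism 9 of 19 genes were higher and 6 lower (78.9% called against 71.5% of all genes, median 0.29). Fasn, the fatty acid synthase, measured 106 to 176 CPM (median 138) in naive and 215 to 323 CPM (median 261) in control libraries (log2 fold change 0.86, SE 0.10, adjusted p = 2.87e-07), and Fabp5, a fatty acid carrier protein, 19.8 to 58.2 CPM (median 35.5) against 113 to 164 CPM (median 131) (log2 fold change 1.88, adjusted p = 2.21e-08). The cholesterol export pumps Abcg1 and Abca1 fell, Abcg1 at 40.9 to 55 CPM (median 46.3) in naive and 7.46 to 12 CPM (median 9.15) in control libraries (log2 fold change -2.33, SE 0.10, adjusted p = 3.59e-12) and Abca1 at 8.37 to 20 CPM (median 11.8) against 0 to 0.605 CPM (median 0.215) (log2 fold change -5.81, adjusted p = 2.7e-08). These 4 genes separated the groups. Insig1, which holds back sterol synthesis, was not called (0.19). A list of redox and iron genes had 13 of 20 higher and 1 lower (70% called, near the 71.5% of all genes, median 0.42). Txnrd1, thioredoxin reductase, measured 148 to 194 CPM (median 168) against 269 to 328 CPM (median 279) (log2 fold change 0.77, adjusted p = 2.07e-09), and Prdx4, an ER peroxiredoxin, 15.9 to 34.3 CPM (median 19.1) against 62.6 to 82.7 CPM (median 70.5) (log2 fold change 1.72, adjusted p = 3.18e-09). The 1 lower gene was Nfe2l2 (NRF2), the factor that drives many antioxidant genes, at 81.5 to 117 CPM (median 92.3) against 45.7 to 55 CPM (median 49.5) (log2 fold change -0.91, adjusted p = 1.81e-09).

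Lysosome and autophagy genes had 5 higher and 9 lower of 22 (63.6% called, below the 71.5% over all genes, median -0.09). Gabarapl1, an autophagosome protein, measured 10.3 to 14.7 CPM (median 12.2) against 30.3 to 42.5 CPM (median 35) (log2 fold change 1.51, adjusted p = 4.62e-11), and Hexa, a lysosomal hexosaminidase, 46.9 to 70.2 CPM (median 62.2) against 8.7 to 14.4 CPM (median 11.8) (log2 fold change -2.39, adjusted p = 3.11e-12). Both separated the groups in opposite directions.

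Of 21 BCL2 family, caspase and death receptor genes 10 were higher and 8 lower (median 0.16). Bcl2, the anti-apoptotic gene of resting lymphocytes, measured 99.8 to 237 CPM (median 138) in naive and 22.6 to 36.3 CPM (median 29.1) in control libraries (log2 fold change -2.37, SE 0.15, adjusted p = 3.06e-10). Its opponent Bcl2l11 (BIM) measured 23.9 to 44.5 CPM (median 27.4) against 8.46 to 19.8 CPM (median 16.8) (log2 fold change -0.9, adjusted p = 4.82e-05), and Mcl1 74.1 to 108 CPM (median 85) against 39.9 to 70.6 CPM (median 47.3) (log2 fold change -0.84, adjusted p = 9.33e-07). Bcl2a1b, an NF-kappaB-induced survival gene of a family of near-identical copies among which reads may be split, measured 57.6 to 96.2 CPM (median 80.2) against 112 to 133 CPM (median 123) (log2 fold change 0.64, adjusted p = 1.89e-06). For these 4 genes the groups did not overlap, and anti-apoptotic members occur in both directions.

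Of DNA and histone methylation enzymes 8 of 18 were higher and 8 lower (median 0.08). Dnmt1, the maintenance DNA methyltransferase, measured 245 to 386 CPM (median 318) in naive and 518 to 696 CPM (median 591) in control libraries (log2 fold change 0.93, SE 0.09, adjusted p = 2.07e-08) and its cofactor Uhrf1 127 to 252 CPM (median 214) against 410 to 526 CPM (median 495) (log2 fold change 1.27, adjusted p = 1.74e-08). Ezh2, the H3K27 methyltransferase, measured 83.9 to 149 CPM (median 117) against 231 to 260 CPM (median 242) (log2 fold change 1.07, adjusted p = 6.56e-09). Lower were the DNA demethylases Tet1 at 6.22 to 14 CPM (median 9.41) against 0.619 to 1.45 CPM (median 1.05) (log2 fold change -3.14, adjusted p = 3.41e-10) and Tet2 at 30.6 to 40.6 CPM (median 36) against 18.1 to 25.7 CPM (median 21.9) (log2 fold change -0.71, adjusted p = 4.94e-07), and the H3K27 demethylase Kdm6b lower by 1.34. Groups did not overlap in these 6 genes. The de novo enzyme Dnmt3a did not pass the test (log2 fold change 0.12, adjusted p = 0.267).

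Cytoskeletal, S100, annexin and galectin genes were higher in 24 of 30 and lower in 4 (median 0.89). S100a4, a calcium-binding regulator of motility, measured 11.8 to 48.1 CPM (median 13.8) in naive and 274 to 498 CPM (median 364) in control libraries (log2 fold change 4.27, SE 0.30, adjusted p = 1.28e-09). S100a6 measured 52.2 to 187 CPM (median 73.6) against 337 to 580 CPM (median 510) (log2 fold change 2.49, adjusted p = 2.79e-08), and Capg, an actin-capping protein, 68.5 to 113 CPM (median 74.5) against 261 to 324 CPM (median 286) (log2 fold change 1.86, adjusted p = 1.85e-11). Lgals1 (galectin-1) measured 342 to 984 CPM (median 452) in naive and 1516 to 1946 CPM (median 1561) in control libraries (log2 fold change 1.65, SE 0.17, adjusted p = 6.51e-08) and Lgals3 30.6 to 125 CPM (median 60.3) against 177 to 348 CPM (median 314) (log2 fold change 2.1, adjusted p = 1.92e-07). Naive library 2 was the highest of its group for S100a4, S100a6 and Lgals1, and still below every control. The lamin gene Lmna was lower (log2 fold change -1.66, adjusted p = 2.45e-06) and Lmnb1 higher (1.37).

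Glycosyltransferases were lower in 14 of 21 and higher in 4 (median -0.46). The 4 higher genes included Fut7 and Gcnt1, which build the selectin ligand sialyl Lewis x and core 2 O-glycans. Fut7 measured 6.63 to 13.9 CPM (median 8.17) in naive and 34 to 58.3 CPM (median 43.3) in control libraries (log2 fold change 2.36, SE 0.15, adjusted p = 3.34e-10), and Gcnt1 1.23 to 3.57 CPM (median 2.44) in naive and 7.87 to 14.4 CPM (median 10.1) in control libraries (log2 fold change 2.17, SE 0.19, adjusted p = 1.34e-08). St6gal1, which adds alpha-2,6 sialic acid to N-glycans, measured 53.3 to 102 CPM (median 82.5) against 5.69 to 16.4 CPM (median 14.1) (log2 fold change -2.71, adjusted p = 3.08e-09). Each separated the groups. The other 2 higher genes were Galnt1 (0.46) and St3gal1, whose call was lost when libraries were scaled to total counts (0.12).

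Receptors and enzymes of cyclic nucleotide, purinergic and calcium signalling were lower in 19 of 27 and higher in 6 (median -0.92). Pde3b, which degrades cyclic nucleotides, fell from a median of 54.5 to 29.5 CPM (log2 fold change -0.92, adjusted p = 2.12e-08), and P2rx7, the ATP-gated channel, was lower with overlapping groups (log2 fold change -1.25, adjusted p = 0.00409). Higher were Adora2a, the adenosine receptor, at 34.7 to 44.8 CPM (median 40.4) against 48.3 to 59.3 CPM (median 55.8) (log2 fold change 0.45, adjusted p = 1.82e-06) and the potassium channel Kcnn4 at 224 to 283 CPM (median 271) against 294 to 364 CPM (median 326) (log2 fold change 0.31, adjusted p = 6.35e-05). Neither of these overlapped.

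Cytokine and chemokine genes were called in 15 of 23 cases (65.2%, below the 71.5% of all genes), 6 higher and 9 lower (median -0.17). Ifng stood at 4.77 to 9.61 CPM (median 6.96) in naive and 5.96 to 12.9 CPM (median 8.89) in control libraries and did not pass the test (log2 fold change 0.33, SE 0.17, adjusted p = 0.0846), and neither did Tnf at 10.7 to 16.2 CPM (median 13.9) against 11.9 to 14.7 CPM (median 13.4) (log2 fold change -0.04, adjusted p = 0.712) or Il2 at 1.05 to 1.83 CPM (median 1.63) against 1.13 to 1.73 CPM (median 1.31) (log2 fold change -0.17, adjusted p = 0.307). Without control 3, Ifng was called at a log2 fold change of 0.41 (adjusted p = 0.0371). Tnfsf11 (RANK ligand) measured 1.25 to 3.3 CPM (median 2.26) against 9.03 to 26.9 CPM (median 21.3) (log2 fold change 3.02, adjusted p = 1.48e-09) and Csf2 (GM-CSF) 0.314 to 1.3 CPM (median 0.593) against 1.51 to 6.48 CPM (median 3.01) (log2 fold change 2.17, adjusted p = 1.74e-05), both without overlap. Ltb, a lymphotoxin subunit, fell from a median of 867 to 397 CPM (log2 fold change -1.19, adjusted p = 1.92e-09). Ccl3 was higher and Ccl4, its neighbour and close relative, lower (0.74 and -0.68).

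Granule genes were called in 13 of 15, 6 higher and 7 lower (median -0.14). Prf1 (perforin), the pore former, measured 126 to 187 CPM (median 148) in naive and 32.6 to 81.4 CPM (median 44.3) in control libraries (log2 fold change -1.69, SE 0.17, adjusted p = 5.8e-08). Every naive library lay above every control. Gzma measured 103 to 425 CPM (median 189) against 31.9 to 112 CPM (median 50) (log2 fold change -1.84, adjusted p = 4.83e-05) and Gzmk 81.4 to 235 CPM (median 154) against 18.1 to 151 CPM (median 26.8) (log2 fold change -1.76, adjusted p = 0.00182), both overlapping. Natural killer cells express Prf1 and Gzma too, and their summed markers stood at 79.9 to 135 against 9.02 to 19.9 CPM, and their part in the result was not tested. Gzmb did not pass the test at 135 to 674 CPM (median 244) against 197 to 482 CPM (median 228) (log2 fold change -0.11, adjusted p = 0.746), and neither did Nkg7 (log2 fold change -0.14, adjusted p = 0.174). Nkg7 was called lower when scaled to total counts (-0.24), when mean log2 CPM had to reach 4 (-0.24) and without controls 1 and 2 (-0.21). Serpinb9, which protects the killer from its own granzyme B, measured 175 to 405 CPM (median 247) in naive and 378 to 585 CPM (median 448) in control libraries (log2 fold change 0.87, SE 0.15, adjusted p = 6.65e-05), and Stx11, of granule fusion, 20.8 to 45 CPM (median 35) against 59.4 to 73 CPM (median 64.5) (log2 fold change 0.93, adjusted p = 7.58e-07).

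Interferon-stimulated genes fell, with a group of exceptions. Of 24 type I genes 20 were lower and 4 higher (median -1.65), and all 24 interferon gamma and class I genes were lower (median -1.24). Promoters of 2 members on opposite sides are shown because both hold the interferon-stimulated response element-like motif made of GAAA, any 2 bases and again GAAA, on either strand, in capitals below. The windows run from 250 bases before to 50 after the gene start, from RefSeq on GRCm38.p6.
Ifit3 promoter, chr19:34583279-34583578, plus strand: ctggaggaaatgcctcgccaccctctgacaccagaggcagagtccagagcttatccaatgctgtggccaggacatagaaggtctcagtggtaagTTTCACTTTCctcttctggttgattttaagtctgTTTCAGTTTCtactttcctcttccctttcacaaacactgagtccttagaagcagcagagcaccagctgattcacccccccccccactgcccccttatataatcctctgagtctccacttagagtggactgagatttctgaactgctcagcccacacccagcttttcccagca
Ifitm3 promoter, chr7:141010695-141010994, minus strand: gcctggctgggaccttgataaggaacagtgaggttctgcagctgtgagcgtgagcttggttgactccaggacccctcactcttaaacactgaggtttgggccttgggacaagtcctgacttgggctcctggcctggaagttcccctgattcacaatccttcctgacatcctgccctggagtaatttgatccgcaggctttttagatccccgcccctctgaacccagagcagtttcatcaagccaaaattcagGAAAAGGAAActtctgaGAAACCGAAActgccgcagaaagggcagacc
The motif occurred in 10 of the 18 type I members with a promoter in the table (55.6%), in 8 of 18 interferon gamma and class I members (44.4%) and in 421 of 10487 tested genes with a promoter (4.01%). A match is a description of letters only. Ifit3, an RNA-binding antiviral protein whose promoter is the first shown, measured 87.7 to 378 CPM (median 207) in naive and 2.28 to 24 CPM (median 10.7) in control libraries (log2 fold change -4.27, SE 0.45, adjusted p = 2.36e-07). Ifit1 measured 65.1 to 279 CPM (median 171) against 5.01 to 30 CPM (median 19.3) (log2 fold change -3.31, adjusted p = 3.65e-07), and Irf7, which amplifies the response, 203 to 534 CPM (median 338) against 37.8 to 99 CPM (median 61.6) (log2 fold change -2.38, adjusted p = 2.64e-08). None of these overlapped.

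The 4 type I members that were higher were Ifitm1, Ifitm2, Ifitm3 and Ly6a, named together after their values were seen. Ifitm1, of a family of membrane proteins that hinder virus entry, measured 0.364 to 3.67 CPM (median 1.54) in naive and 10.9 to 74.5 CPM (median 30.4) in control libraries (log2 fold change 4.41, SE 0.49, adjusted p = 2.83e-07). Ifitm2 measured 1.62 to 2.46 CPM (median 1.97) against 4.41 to 30.6 CPM (median 17.7) (log2 fold change 3.08, adjusted p = 8.62e-08) and Ifitm3 4.57 to 8.62 CPM (median 6.75) against 4.27 to 30 CPM (median 15) (log2 fold change 1.2, adjusted p = 0.00207). Ly6a (Sca-1) was higher with overlap (log2 fold change 0.83, adjusted p = 2.73e-05), while its relative Ly6c2 was lower (log2 fold change -1.4, adjusted p = 0.000242). The promoters of Ifitm2 and Ifitm3 both hold the motif shown above.

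In the interferon gamma group the class I heavy chain H2-K1, the molecule that presents SIINFEKL, measured 3774 to 5386 CPM (median 4429) in naive and 1450 to 1799 CPM (median 1661) in control libraries (log2 fold change -1.45, SE 0.06, adjusted p = 3.73e-12). B2m, its light chain, measured 2983 to 3997 CPM (median 3603) against 1534 to 1799 CPM (median 1671) (log2 fold change -1.08, adjusted p = 2.99e-11), and Nlrc5, the transactivator of class I genes, 218 to 325 CPM (median 302) against 74.2 to 110 CPM (median 89.2) (log2 fold change -1.7, adjusted p = 4.11e-11). Groups did not overlap for these 3 genes. Dendritic cells and B cells also express class I and interferon-stimulated genes, and their summed markers fell at the values given above, whose part in the result was not tested.

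Proteasome genes were higher in 35 of 38 (median 0.55), with Psmd1, a regulatory subunit, at 221 to 281 CPM (median 254) against 426 to 495 CPM (median 454) (log2 fold change 0.87, adjusted p = 2.04e-10). The 3 lower members were Psmb8, Psmb9 and Psmb10, which are the catalytic subunits of the immunoproteasome (-0.13, -0.57 and -0.56). For Psmb8 the groups overlapped, at 910 to 1083 CPM (median 995) against 840 to 1024 CPM (median 897) (log2 fold change -0.13, adjusted p = 0.0217), and the call was lost without control 3 at -0.09 (adjusted p = 0.0835). All 20 cytosolic aminoacyl-tRNA synthetases were higher (median 0.59), as were 71 of 78 mitochondrial ribosomal proteins (median 0.54) and 39 of 53 initiation factors (median 0.38). Of 82 cytosolic ribosomal proteins 32 were higher, 17 lower and 33 not called (median 0.05), so 59.8% were called against 71.5% of all genes, and 31 were lower when scaled to total counts. Eif4e, the cap-binding protein, measured 168 to 206 CPM (median 189) against 292 to 358 CPM (median 307) (log2 fold change 0.76, adjusted p = 6.46e-10), while Eif4a2 was lower (-0.93). Histone genes, core and linker histones together, were higher in 55 of 63 (median 0.98), with the linker histone Hist1h1b at 12.9 to 40.8 CPM (median 22.6) against 70.2 to 106 CPM (median 81) (log2 fold change 1.79, adjusted p = 3.9e-08). The replication-dependent histone mRNAs have no polyA tail, and the labels name a polyA-based kit, so their counts depend on that step. GIMAP GTPases, which support survival of resting T cells, were lower in 7 of 8 (median -0.45), among them Gimap6 (log2 fold change -1.25, adjusted p = 1.59e-11).

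The 15 largest rises and 15 largest falls among well expressed, non-overlapping genes hold several with no place in the lists. Rbm45, an RNA-binding protein, measured 4.02 to 6.7 CPM (median 4.67) in naive and 38.1 to 43.7 CPM (median 40.2) in control libraries (log2 fold change 3.02, SE 0.09, adjusted p = 3.89e-14, ENSMUSG00000042369.8, chr2:76369984-76383768, plus strand). Ctse (cathepsin E) measured 13 to 21.6 CPM (median 16.1) against 149 to 185 CPM (median 169) (log2 fold change 3.29, adjusted p = 7.89e-14), and the membrane protease St14 (matriptase) 6.59 to 14 CPM (median 7.72) against 69.5 to 82.9 CPM (median 76.4) (log2 fold change 3.11, adjusted p = 3.61e-12). Axl, a receptor tyrosine kinase better known in myeloid cells, measured 8.91 to 13.5 CPM (median 11.5) in naive and 52.8 to 86.3 CPM (median 73.6) in control libraries (log2 fold change 2.63, SE 0.11, adjusted p = 1.38e-12). Utf1, a chromatin protein of pluripotent cells, measured 1.96 to 7.56 CPM (median 4.28) against 22.4 to 53.6 CPM (median 29.4) (log2 fold change 2.89, adjusted p = 2.41e-08), Nebl, an actin-binding protein, 2.9 to 6.8 CPM (median 4.36) against 24.3 to 48.2 CPM (median 32.6) (log2 fold change 2.96, adjusted p = 4.16e-10), and the anion transporter Slco4a1 7.36 to 22 CPM (median 12.7) against 74.1 to 112 CPM (median 85.7) (log2 fold change 2.82, adjusted p = 6.08e-10). The unconventional myosin Myo1e rose by 2.59. Summed macrophage and monocyte markers stood at 48.2 to 114 CPM in the naive libraries and at 27.3 to 50 CPM in the controls, with 4 of 9 tested markers lower, 5 not called and none without overlap, and their part in the Axl result was not tested.

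Among the largest falls, several genes are known from other cells. Plbd1 measured 55.9 to 197 CPM (median 125) in naive and 0.645 to 4.54 CPM (median 1.52) in control libraries (log2 fold change -6.02, SE 0.37, adjusted p = 2.83e-10), Apol7c 16.2 to 50.2 CPM (median 35.6) against 0.177 to 1.59 CPM (median 0.375) (log2 fold change -6.0, adjusted p = 3.76e-10) and H2-Ob, a chain of the class II modulator H2-O, 32.3 to 61.6 CPM (median 47.4) against 0.291 to 1.75 CPM (median 0.763) (log2 fold change -5.72, adjusted p = 6.22e-11). Cnr2, the cannabinoid receptor found on B cells, measured 41.2 to 78.6 CPM (median 59.1) against 0.0394 to 1.43 CPM (median 0.556) (log2 fold change -6.49, adjusted p = 2.43e-10). Beside them, the cross-presenting dendritic cell genes Clec9a and Xcr1 measured 5.34 to 18 CPM (median 9.24) against 0 to 0.202 CPM (median 0.0329) and 19.3 to 60 CPM (median 33.9) against 1.66 to 4.88 CPM (median 3.63), and the part of such cells in these results was not tested. Adgrg5, an adhesion receptor, measured 187 to 288 CPM (median 249) in naive and 4.55 to 15.1 CPM (median 7.34) in control libraries (log2 fold change -4.93, SE 0.20, adjusted p = 1.38e-12). Vipr1, the receptor for vasoactive intestinal peptide, measured 20.8 to 45.2 CPM (median 36.2) against 0.496 to 1.95 CPM (median 0.896) (log2 fold change -5.02, adjusted p = 2.75e-11). Slc16a5, a monocarboxylate carrier, measured 32.6 to 65 CPM (median 51.4) against 0.415 to 2.31 CPM (median 0.643) (log2 fold change -5.98, adjusted p = 2.1e-11). Ifit1bl1 and Iigp1, both interferon-induced, fell by 5.55 and 5.37 on the log2 scale.

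A few genes of other T cell lineages were higher. Trdc, the constant segment of the delta receptor, measured 11.7 to 23.1 CPM (median 16.9) in naive and 80 to 149 CPM (median 112) in control libraries (log2 fold change 2.77, SE 0.14, adjusted p = 1.93e-11), while the gamma segment Trgv2 fell (log2 fold change -3.5, adjusted p = 2.59e-09). Zbtb7b (ThPOK), the CD4 lineage factor, measured 0.729 to 2.12 CPM (median 1.18) against 3.08 to 12.6 CPM (median 7.5) (log2 fold change 2.63, adjusted p = 5.05e-08), and Cd40lg, the CD40 ligand of helper cells, 0.532 to 0.91 CPM (median 0.733) against 0.958 to 9.45 CPM (median 5.75) (log2 fold change 2.85, adjusted p = 4.61e-07). The groups did not overlap for these genes. Foxp3 fell (log2 fold change -3.09, adjusted p = 7.15e-10), and Cd4 itself did not pass the test (log2 fold change -1.19, adjusted p = 0.145).

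Within the groups, the spread was small for most genes, with a median SD of log2 CPM of 0.236 in the naive and 0.231 in the control libraries, and 48.5% of genes varied more in the naive group. The genes with the largest SD in the controls included Ctla2a and Gzmk. Ctla2a, a cysteine protease inhibitor, stood at 160 and 80.4 CPM in controls 1 and 2 and at 18 to 38.3 CPM in the other 6, against 171 to 254 CPM in the naive libraries. Gzmk stood at 151 and 85.1 CPM in controls 1 and 2 and at 18.1 to 33.2 CPM in the others. Eomes, Ly6c2 and Gzma were likewise highest in controls 1 and 2, Ly6c2 at 931 and 614 CPM against 197 to 386 CPM. The Trbv12-1 share of controls 1 and 2 was 99.8%, as high as in the others. The remaining genes of largest SD in the controls were Hist1h2ac, AC124502.3, Gm49322 and Gm38431. In the naive group they were Gm21982, Sept2, Gm28036, Gm5148, Gm38431 and Brms1, most of them predicted genes, and Sept2 is a symbol held by 2 annotated identifiers between which reads can be split. None of these genes was called. Naive library 2 had the highest Gzmb, at 674 CPM, and naive library 5 had the lowest Mki67, at 91.2 CPM.

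**Figure D4:**
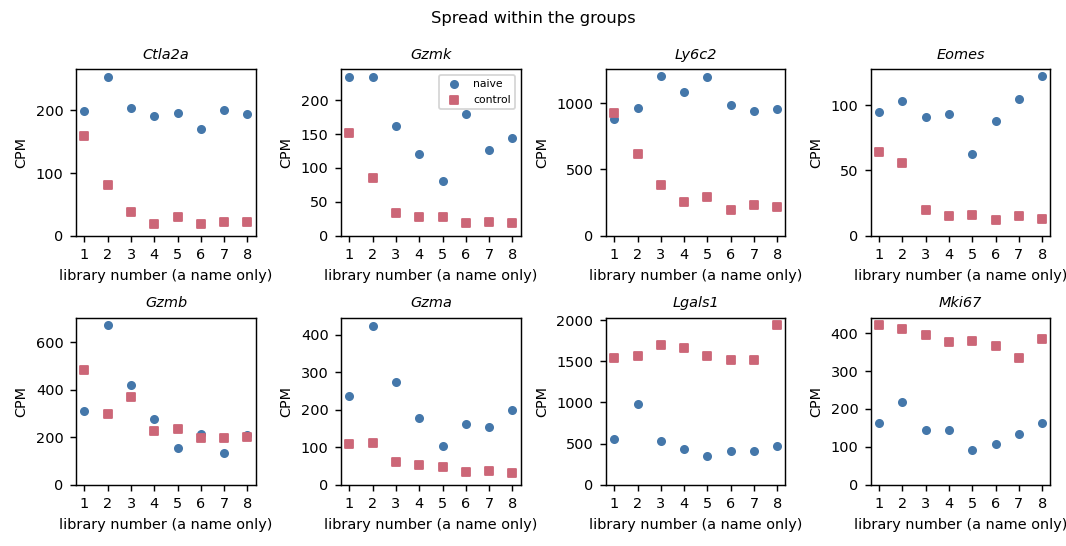
Points give TMM-scaled CPM by library for 8 genes, naive as circles and control as squares; library numbers are names only and pair nothing. Controls 1 and 2 stand above the other controls for Ctla2a, Gzmk, Ly6c2, Eomes and Gzma, and naive library 2 is the highest naive library for Gzmb, Lgals1 and Mki67.

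Transcript shares differed too. Of 8581 genes with at least 2 transcripts kept, 751 (8.75%) were called for a change in usage (edgeR's diffSpliceDGE, Simes test per gene), and 327 (3.81%) had in addition a transcript whose share moved by at least 10 percentage points. On simulated data with 200 changed genes the same test recovered 53 of them and made 51 false calls, 19 of them with a change of that size, so the counts hold false calls and single genes are best read by their values in each library. The share of changed genes was smaller there than the share called in the data, so these numbers need not carry over. Without controls 1 and 2 the count was 443, and without controls 3, 6 and 8 it was 458. Among transcripts of called genes that moved by at least 10 points, retained-intron transcripts fell in 70 of 87 cases and transcripts marked for nonsense-mediated decay in 36 of 44, while protein-coding ones rose in 278 of 433. A gene can give several cases, and a fall of 1 transcript's share raises the others, so these counts are not independent. The share of falls over all kept transcripts of each class is not given here, so the counts have no background. Retained-intron transcripts held 5.58 ± 0.328% of all counts in the naive libraries and 3.56 ± 0.23% in the controls (SD, n = 8 each, exact two-sided permutation p = 0.000155, adjusted p = 0.000233 over 30 measures). This p is the smallest that 12870 splits can give.

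Ptprc (CD45), the phosphatase whose exons A, B and C are kept in resting T cells more often than in activated ones, was called (adjusted p = 5.93e-21). The exons are shown because they define the transcripts compared, from GENCODE M21 on GRCm38 (chromosome 1, minus strand, coding).
Ptprc exon A, chr1:138122456-138122584, minus strand: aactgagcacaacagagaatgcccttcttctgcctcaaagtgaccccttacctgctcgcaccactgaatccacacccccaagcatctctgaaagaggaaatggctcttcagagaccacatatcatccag
Ptprc exon B, chr1:138120020-138120166, minus strand: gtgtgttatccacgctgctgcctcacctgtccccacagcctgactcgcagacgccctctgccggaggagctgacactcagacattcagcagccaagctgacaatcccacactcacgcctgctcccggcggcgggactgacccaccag
Ptprc exon C, chr1:138117754-138117894, minus strand: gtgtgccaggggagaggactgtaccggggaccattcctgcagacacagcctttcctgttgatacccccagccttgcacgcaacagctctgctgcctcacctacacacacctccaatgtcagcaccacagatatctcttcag
Ptprc-207 contains all 3 exons, Ptprc-203 none of them, and Ptprc-204 lacks in addition the next exon of 72 bases. As a percent of the gene's counts, Ptprc-207 measured 31.2 to 60.8% (median 51.9%) in naive and 0.799 to 49% (median 19.6%) in control libraries. Ptprc-203 measured 11.9 to 19.3% (median 15.1%) in naive and 22.8 to 40.1% (median 33.2%) in control libraries, without overlap. Ptprc-204 measured 0.108 to 0.598% (median 0.412%) in naive and 1.94 to 44.3% (median 3.9%) in control libraries, and only controls 3, 6 and 8 lay above 5%, at 30.6, 44.3 and 36.6%. In those libraries Ptprc-207 stood at 0.942, 0.915 and 0.799%. The gene's adjusted p rests on Ptprc-204, whose unadjusted transcript p from diffSpliceDGE was 1.15e-25. The same test gave 0.000513 for Ptprc-207 and 0.00157 for Ptprc-203, so the gene's p does not measure the use of exons A, B and C alone. Among these 3 transcripts, Ptprc-207 held 61.4 to 83.5% in the naive libraries and 1.15 to 66.4% in the controls. The retained-intron transcript Ptprc-201 held 14.4 to 33.9% in the naive libraries, and the 4 in which it exceeded 20% (naive 1, 3, 5 and 7) were those with the lowest Ptprc-207. These are estimates for overlapping transcripts, and forms with 1 or 2 of the exons are held here only by partial models, such as Ptprc-213 with exon B, which took 3.01 to 6.16% of the gene's counts in naive and 1.1 to 2.35% in control libraries. Markers of other cells, B cells among them, were lower in the controls at the values given above, and the part of such cells in these shares was not tested.

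Prkag2, a regulatory subunit of the energy sensor AMPK singled out after its values were seen, differed in the estimated shares of 2 transcripts with different starts. No usage p is given for it here. The gene (ENSMUSG00000028944.14) lies on the minus strand of chromosome 5. Prkag2-201 begins at 25100642 and Prkag2-203 at 24908469, which is 192173 bases downstream and shortens the transcript from 16 to 12 exons. As a percent of the gene's counts, Prkag2-201 measured 64 to 88.3% (median 77.8%) in naive and 0.464 to 14.6% (median 3.27%) in control libraries. Prkag2-203 measured 7.65 to 24.8% (median 15.5%) in naive and 75.2 to 89.1% (median 86%) in control libraries. The groups did not overlap in either transcript. These shares, and those of Cmah below, are estimates for overlapping transcripts, and the use of the starts was not measured directly. Another promoter window of the gene in RefSeq, chr5:24995704-24996003, is not shown. The windows around both starts are shown so that they can be compared, from RefSeq on GRCm38.p6.
Prkag2 long form, chr5:25100593-25100892, minus strand: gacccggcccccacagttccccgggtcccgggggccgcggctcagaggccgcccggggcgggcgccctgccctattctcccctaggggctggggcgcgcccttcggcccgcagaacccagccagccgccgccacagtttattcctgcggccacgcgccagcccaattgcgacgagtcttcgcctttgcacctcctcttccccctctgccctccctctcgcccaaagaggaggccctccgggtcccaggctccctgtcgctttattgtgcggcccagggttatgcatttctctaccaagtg
Prkag2 short form, chr5:24908460-24908759, minus strand: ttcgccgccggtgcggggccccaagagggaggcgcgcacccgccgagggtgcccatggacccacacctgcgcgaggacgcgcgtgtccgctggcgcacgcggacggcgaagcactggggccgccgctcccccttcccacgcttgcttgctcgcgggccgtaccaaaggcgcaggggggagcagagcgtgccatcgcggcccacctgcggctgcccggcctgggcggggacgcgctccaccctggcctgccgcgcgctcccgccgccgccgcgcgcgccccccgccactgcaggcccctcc

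Cmah, the hydroxylase that converts the sialic acid Neu5Ac to Neu5Gc, had the smallest usage p of all genes (adjusted p = 7.21e-22). Cmah-202 measured 51.2 to 76.8% (median 55.6%) in naive and 0 to 0.568% (median 0.0992%) in control libraries. Cmah-207, which starts 39039 bases further downstream on chromosome 13, measured 13.1 to 43.1% (median 38.2%) in naive and 61.8 to 73.7% (median 68.8%) in control libraries, and Cmah-208, whose start lies 48663 bases upstream of that of Cmah-202, measured 2.48 to 7.27% (median 3.97%) in naive and 20 to 31.2% (median 25%) in control libraries. No transcript of the 3 overlapped between the groups, and the gene as a whole was lower (log2 fold change -0.68, adjusted p = 1.06e-08).

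**Figure D5:**
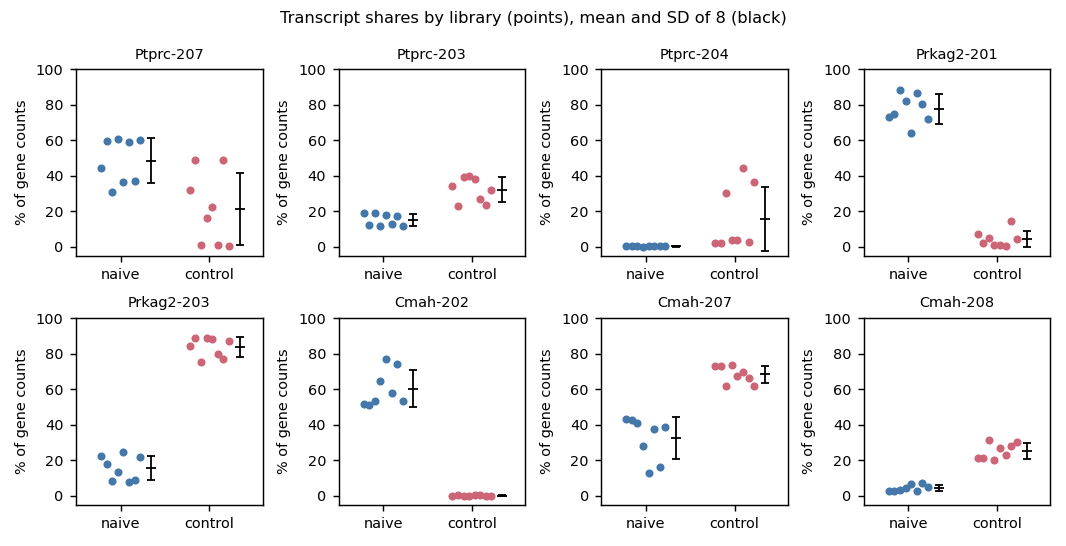
Each point is a library, with the mean and SD of 8 in black; the axis gives a transcript's share of its gene's counts in percent. Prkag2-201 and Cmah-202 are low in all controls, and Ptprc-204 exceeds 30% only in controls 3, 6 and 8.

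Of 26 genes listed for isoform changes in T cells 24 were tested and 5 called, among them Ptprc, Srsf7, Nfatc1 and Srsf3. Srsf7 and Srsf3 encode SR proteins that limit their own level through a poison exon. The coding Srsf7-201 held 36.4 ± 6.06% in the naive libraries and 55.9 ± 5.21% in the controls (SD, n = 8 each). The decay-marked Srsf7-203 held 22.6 ± 3.55% and 11.1 ± 2.89%, with overlapping groups. The gene's Simes p (adjusted p = 0.000141) rests on neither of them. It rests on the retained-intron Srsf7-207, at 15.7 ± 7.69% and 3.85 ± 3.39%, where the groups overlapped too. Srsf3-202, the coding form, measured 29.2 to 64.5% (median 33.8%) in naive and 33.5 to 85.8% (median 71.5%) in control libraries, and the decay-marked Srsf3-201 measured 10.9 to 39.9% (median 36.1%) in naive and 4.28 to 49.3% (median 10.7%) in control libraries. Naive library 7, at 64.5% for Srsf3-202, and control 6, at 33.5%, lay on the other group's side. Nfatc1-203, a form of the calcium-regulated factor NFATc1, held 29.3 ± 3.42% and 11.7 ± 4.98% (adjusted p = 0.021), and Nfatc1 was no longer called without controls 1 and 2 (adjusted p = 0.0903). Of the other genes with the smallest p, Shisa5-218 went from 10.3 ± 1.63 to 1.29 ± 0.291%, Fam118a-203 from 24.3 ± 17.3 to 0.0191 ± 0.054% and the decay-marked Ifi209-202 from 8.92 ± 1.36 to 0.452 ± 0.237% (means ± SD, n = 8 each). The retained-intron transcript Relb-206 of the NF-kappaB subunit gene held 12.4 ± 2.91% in the naive libraries and was listed at 0 in all controls. In Rpn2, Osbpl9, Popdc2 and Pisd the called change lay in a transcript at 0 or under 0.1% of the gene's counts in one of the groups.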

How the data were processed

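RNA-seq counts of 16 mouse CD8+ T cell libraries were used. The deposited gene and transcript tables hold estimated counts that the authors wrote as whole numbers, and each named gene's row equals the sum of its transcripts. Per the labels' protocols, RNA was extracted with the QIAGEN miRNeasy Micro kit and made into libraries with the SMARTer ultra-low polyA V4 kit. The submitters' processing notes list DESeq2 1.30.1 in R 4.0.5, StringTie 2.1.0, the aligner STAR 2.7.1a and SAMtools 1.9, and name the builds mm39 and mm10 without a role. All 55536 named genes and 141862 named transcripts are in GENCODE M21 (GRCm38). Left out were 26248 of 81881 gene rows with numeric identifiers (0.0513 to 0.132% of a library's counts) and 97 spike-in rows, which hold 0 counts. Reads of near-identical or overlapping genes may be split between them, and whether counting used strand is not given in the sources used here.

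Genes passing edgeR's filterByExpr (minimum count 10) were scaled by TMM and tested with edgeR 4.0.16's quasi-likelihood test (glmQLFit, glmQLFTest; 8 control against 8 naive libraries, no covariate, prior count 2) in R 4.3.3, with Benjamini-Hochberg adjustment over 17078 genes and a threshold of 0.05. The SE of a log2 fold change is derived from the same fit. Transcript usage was tested with diffSpliceDGE, library measures with an exact two-sided permutation test. Alternatives included limma 3.58.1 and DESeq2 1.42.0. Intervals for counting error are not given.

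On simulated data with 200 changed genes among 16722, the gene test recovered 49.3% of those changed 1.5-fold, 73.1% of 2-fold and 92.4% of 4-fold, with 7 false calls. The usage test recovered 26.5% of 4-fold changes among 8276 genes with 51 false calls. In both simulations the share of changed genes was smaller than the share called in the data, so these rates need not carry over.

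Members and gene lists were chosen with earlier results of these data known. Named are the 15 largest rises and 15 largest falls (mean log2 CPM of at least 4, called, groups not overlapping, no predicted, receptor or other-cell marker genes), marked key members of the lists whatever they show, in each list the 3 of smallest p, the 6 genes of largest SD in each group, the isoform list and the 10 genes with the smallest usage p. Exceptions within lists, and other genes named outside this rule, were chosen after their values were seen. Some genes that meet the rule are not reported here.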

Additional observations from a re-analysis of the deposited data

Results flagged for a closer look

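A library was singled out where its gap to the nearest of the other 7 of its group, divided by the group's range, passed Dixon's 95% critical value. Of 476 groups of named genes 55 did so, and of 94 groups of library measures and transcript shares 15. Chance alone gives about 1 in 20, and genes of a library are not independent of each other. Of the gene cases, 20 were in naive library 2, 11 in naive library 5, 7 in control 1 and 5 in control 2.

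Naive library 2 was the highest of its group for Capg at 113, Ctla2a at 254, Ctla4 at 27, Havcr2 at 80.3, Il12rb2 at 43.4, Il2ra at 44.2, Itga4 at 242, Lgals1 at 984 and Prdm1 at 16.9 CPM. The same library was the highest for Prdx4 at 34.3, Rb1 at 10.2, S100a4 at 48.1, S100a6 at 187, Slamf1 at 27.4, Slc16a3 at 12.1, Tbx21 at 222, Traj33 at 2.87 and Trbv12-1 at 84.3 CPM. It was the lowest for Gm5148 at 3.8 and Itgae at 83.8 CPM. Naive library 5 was the highest for Bcl2l11 at 44.5, Cblb at 151, Cmah at 291 and Il7r at 712 CPM. The same library was the highest for Jak1 at 1803, Nfe2l2 at 117, Pdcd4 at 218, Tgfbr2 at 284 and Txnip at 691 CPM. It was the lowest for Axl at 8.91 and Dusp4 at 4.16 CPM. Control 1 stood above the other controls for Cdk4 at 634, Ctla2a at 160, Irf8 at 77.7, Psmb8 at 1024 and Slc16a5 at 2.31 CPM. It stood below them for Cxcr6 at 117 and Myo1e at 12.5 CPM. Control 2 stood above the others for Dusp5 at 34.4, Foxo1 at 31.8, Klf2 at 135, Mcl1 at 70.6 and Pde3b at 37.9 CPM. In control 3 the lowest value of the group was that of Hist1h2ac at 0 CPM. In control 3 the highest value of the group was that of Cmah at 202 and Themis at 269 CPM. In control 4 the highest value of the group was that of Apol7c at 1.59 CPM. In control 5 the highest value of the group was that of Adgrg5 at 15.1 and Itgae at 8.58 CPM. In control 8 the highest value of the group was that of Lgals1 at 1946 CPM. In naive library 6 the highest value of the group was that of Maf at 1.9 and Tox at 113 CPM. In naive library 8 the highest value of the group was that of Foxo1 at 83.5, Mcl1 at 108 and St3gal1 at 42.6 CPM.

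Among library measures, naive library 2 had the highest share of Trbv12-1, 12.4% of Trbv counts, and of Traj33, 5.77% of Traj counts, and the lowest share of the mitochondrial genome, 1.08% of all counts. Naive library 6 had the highest shares of the Trav14 family, 24.2% of Trav counts, and of Trbc1, 41.2% of Trbc counts, and the lowest of Trbj2-7, 14.1% of Trbj counts. Naive library 5 had the fewest genes at 1 CPM or more, 12898. Summed red cell markers reached 42.6 CPM in naive library 8, and summed neutrophil markers 3.02 CPM in control 4. Of the transcript shares, Prkag2-201 stood at 14.6% in control 7, and in naive library 7 Srsf3-202 stood at 64.5% and Srsf3-201 at 10.9%. Srsf3-201 stood at 49.3% in control 6. Srsf7-208 stood at 13.8% in naive library 3. Srsf7-207 stood at 12.1% in control 4. Rows with numeric identifiers, which no comparison used, held up to 0.132% of a library's counts. No explanation of these values was tested.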

How the results depend on the processing

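The counts of 5549 higher and 6664 lower genes kept within 1.5 times under other scaling, tests, low-count filters and sets of libraries. They were 5691 and 6518 with RLE size factors, 5755 and 6613 with DESeq2, 5669 and 6855 with limma voom and 5692 and 7393 with all 18 libraries in 1 fit. Scaled to total counts they were 4856 and 7431, the median over all genes moving from -0.08 to -0.18 on the log2 scale. With 4 naive libraries they were 5153 and 5752 (high Xist) and 5493 and 5940 (high Ddx3y). Between 10505 and 12119 of the 12213 calls were shared in the same direction across all alternatives other than the 2 named next. The counts were smaller by construction when mean log2 CPM had to reach 4, at 3064 and 3191, and among changes of at least 2-fold, at 1422 and 3332, where 29.9% rather than 45.4% of the calls were higher. Leaving out 1 library at a time gave 5463 to 5686 higher and 6383 to 6651 lower genes, and leaving out controls 1 and 2, chosen after seeing the data, gave 5611 and 6566.

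Replicate numbers did not pair the libraries. The residuals of same-numbered libraries correlated at -0.04 to 0.049, and 1 of 8 controls correlated best with its own number. The replicate block gave 5445 higher and 6515 lower genes and 781 genes called for usage.

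Of the genes named, Sept2 (log2 fold change -0.58, not called) turned to 1.16 with the high-Ddx3y naive libraries, and the cause was not tested. Xist turned to 3.20 with limma voom, where the cause was not tested. By the way the libraries were chosen, Xist turned to 6.39 with the high-Ddx3y and Ddx3y to 3.72 with the high-Xist naive libraries. Calls lost with the high-Xist naive libraries were those of Prdm1 (0.33), Rb1 (0.26), P2rx7 (-1.02), St3gal1 (0.21), Dusp5 (0.29), Klf4 (1.69) and Psmb8 (-0.11). With the high-Ddx3y libraries Klf4 (1.12), Psmb8 (-0.11) and Stat4 (0.14) lost theirs, and Id2 gained one (0.36). Fewer naive libraries enter both fits. Single libraries decided some small differences. Dusp5 lost its call without control 2 (0.41) or without naive library 1, 3, 4, 5, 6 or 7 (0.47 to 0.56). Psmb8 lost it without control 2, 3, 4, 5, 6, 7 or 8 or naive library 3 or 6 (-0.09 to -0.11). Klf4 lost it without control 4, 5, 6, 7 or 8 or naive library 1, 2, 3, 5, 6 or 8 (1.11 to 1.43). Calls were gained by Ifng without control 3, 7 or 8 or naive library 2 (0.40 to 0.42), Cd28 without control 6 or 7 (0.13 and 0.14), Id2 without control 6 or 7 or naive library 2 (0.28 to 0.29), Myb without control 3 or 4 or naive library 7 (0.17 to 0.19), Cd44 without naive library 6 (-0.18), Jun without control 6 (-0.65) and Insig1 without control 1 (0.27). Of genes with a large spread, Gm28036 gained a call without control 6 (-2.35), Gm5148 without naive library 2 (-0.46) and Hist1h2ac without control 3 (1.59).

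Counts for transcript usage depended more on the processing. The 751 genes became 588 with a minimum count of 30, 3645 with limma's diffSplice, 327 with a change of at least 10 percentage points, 443 without controls 1 and 2 and 458 without controls 3, 6 and 8, the last 2 chosen after seeing the data. Fewer libraries enter those last 2 tests, and the cause of the other differences was not tested. No library make-up measure changed its side of the threshold when scaled to total counts. What depth adds to the error of a gene or transcript was not measured.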
